A study of Homo sapiens with 6 samples.

Results

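H1299 cells come from a human lung carcinoma of the non-small cell type, and here a stable line carrying an NRF3 expression plasmid was compared with a stable line carrying a GFP expression plasmid. Per the labels' protocols, H1299 cells were transfected with plasmid DNA, the stable lines were obtained by G-418 selection in RPMI-1640 with serum, and total RNA was hybridised to Affymetrix whole-transcript arrays from 100 ng. The comparison uses 2 of the 6 arrays of the series, 1 array per line, and members were the genes named by 1 symbol that reached a log2 intensity of 6 on at least 1 of the 2 arrays. These were 11304 of 18417 genes, and 10529 of them reached 6 on both arrays. The other 4 arrays hold HCT116 colon cancer cells and their derivative HCT116-p53KO, each 48 h after transfection with control siRNA or NRF3 siRNA. The labels give neither the promoter of the plasmids nor whether a line is 1 clone or a pool, and both H1299 lines carry a plasmid and passed through selection. With 1 array per line there is no replicate and no test, so every difference below is a size on the log2 scale, NRF3 line minus GFP line.

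NRF3, encoded by NFE2L3, belongs to the cap'n'collar family of basic leucine zipper transcription factors, with NRF1 and NRF2. These proteins pair with small MAF proteins and bind antioxidant response elements. NRF3 is anchored in the endoplasmic reticulum until it is processed and moves to the nucleus, and it is known for its high level in several cancers and for links to proteasome and lipid metabolism genes.

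NFE2L3 itself had a log2 intensity of 8.18 in the GFP line and 10.20 in the NRF3 line, a difference of 2.02. The array cannot separate the plasmid's transcript from the cell's own. Among the other family members and partners, NFE2L2 (NRF2) differed by 0.20 and NFE2L1 (NRF1) by -0.20. BACH1, a repressor that competes for the same DNA elements, went from 7.62 to 7.14.

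The H1299 arrays lay lower on the scale than the others, with median log2 intensities over all probe sets of 6.08 and 6.05 against 6.95 or more, so levels were compared only within a cell line. Over all genes, 59.8% reached 6 in the GFP line and 58.7% in the NRF3 line, against 72.6% to 75.2% on the HCT116-family arrays. Of 23 epithelial adhesion and keratin genes, 12 reached 6 in the GFP line and 11 in the NRF3 line. The epithelial genes EPCAM (3.98 and 3.74) and CDH1 (4.49 and 4.62) and the lung gene NKX2-1 (4.92 and 5.09) were under 6 in both H1299 lines, whereas the mesenchymal filament gene VIM was at 12.45 and 12.08. VIM is 1 of 16 mesenchymal genes, of which 9 reached 6 in the GFP line and 8 in the NRF3 line. On the HCT116-family arrays 9 or 10 of the 16 did. Of 14 lung epithelial genes 5 reached 6 in the GFP line and 4 in the NRF3 line, with ABCA3 at 8.26 and 8.02 and FOXA1 at 6.72 and 6.36, while the surfactant genes SFTPB and SFTPC were under 6 on both arrays. On the HCT116-family arrays, which lie higher on the scale, 10 or 11 of these 14 reached 6. Of 12 colon epithelial genes 4 reached 6 in the GFP line and 3 in the NRF3 line, against 7 or 8 on the HCT116-family arrays. Of 14 fibroblast, endothelial and blood markers, 2 reached 6 on each H1299 array. As a rough scale for differences without replicates, the 7113 genes under 6 on both arrays had differences with an SD of 0.27, and 0.394% of them reached 2-fold. Both values of these genes are held under 6, so this SD may be too small for expressed genes. The expressed genes had an SD of 0.38, which also holds any real differences between the lines. Where a gene had several expressed probe sets (439 genes), their differences lay a median of 0.0782 apart, and 90% lay within 0.415.

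In bulk RNA, fewer cells with a transcript and less of it per cell cannot be told apart. At 2-fold or more, 77 genes were higher in the NRF3 line, 0.681% of the genes compared, and 129 were lower, 1.14%. At 1.5-fold the numbers were 545 (4.82%) and 475 (4.2%). Differences of any size were near balance, with 49.4% higher and 50% lower. Of the 20 largest differences in each direction, 10 of the higher and 14 of the lower involved an array under 6, where the true fold is poorly bounded.

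**Figure D1:**
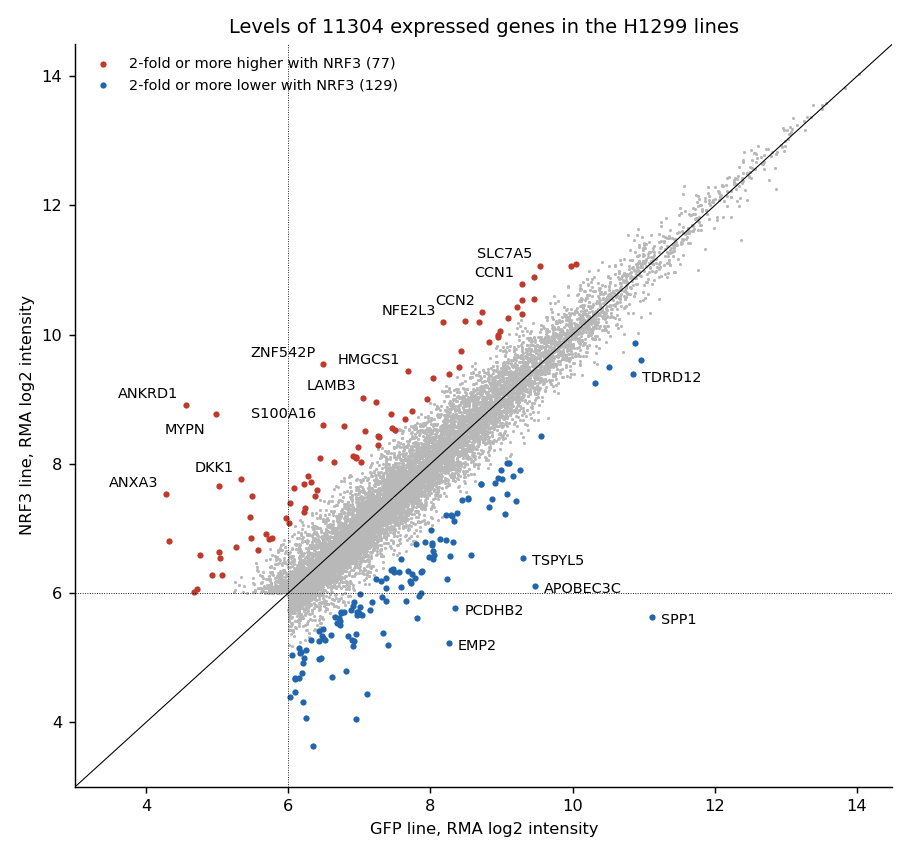
Log2 intensity of each of the 11304 genes in the GFP line (horizontal axis) and the NRF3 line (vertical axis), with the diagonal marking equal levels and dotted lines the level of 6. The 77 genes 2-fold or more higher are red, the 129 lower are blue, and SPP1 (11.11 and 5.63) lies farthest from the diagonal.

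Among the higher genes, ANKRD1, a muscle ankyrin-repeat protein and a familiar YAP target, went from 4.56 to 8.91, a difference of 4.35. MYPN, which encodes the Z-disc protein myopalladin, went from 4.99 to 8.77, and PDLIM1, a PDZ-LIM protein that binds alpha-actinin, from 5.02 to 7.65. All 3 were under 6 in the GFP line and well above it in the NRF3 line. The other Z-disc and PDZ-LIM genes did not share this size: of 11 expressed, 2 were 1.5-fold higher, and the others lay between CSRP1 at 0.34 and PDLIM2 at -0.12.

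ANXA3, a calcium-dependent membrane-binding annexin, went from 4.28 to 7.53. ANXA7 went from 7.51 to 8.52, while ANXA2 was at 11.69 and 11.68. S100A16, an EF-hand calcium-binding protein, went from 6.49 to 8.59. DKK1, a secreted WNT inhibitor, went from 5.33 to 7.76. The laminin chain LAMB3 (7.05 and 9.02) and the desmosomal plaque protein DSP (6.44 and 8.09) were also higher. ZNF542P (6.48 and 9.55) overlaps ZSCAN5A, and PTX3 (5.46 and 7.18) overlaps VEPH1, so these signals may not be those of the named gene alone.

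In the other direction SPP1, which encodes the secreted phosphoprotein osteopontin, had the largest difference of all. It stood at 11.11 in the GFP line and 5.63 in the NRF3 line, a difference of -5.48. EMP2, a tetraspan membrane protein, went from 8.26 to 5.23, and its relatives EMP1 and EMP3 differed by -0.61 and -0.21. TSPYL5 went from 9.30 to 6.55 and GATM, the first enzyme of creatine synthesis, from 7.10 to 4.44. The receptor tyrosine phosphatase PTPRS went from 7.81 to 5.61, the palmitoyltransferase gene ZDHHC15 from 6.95 to 4.05, and the retrotransposon-derived gene RTL6 from 7.40 to 5.20. In 2 of these families the size belonged to 1 member: the other 9 expressed gag-derived genes lay between PNMA1 at 0.29 and PNMA2 at -0.34, and the other 18 palmitoyltransferases between ZDHHC6 at 0.52 and ZDHHC2 at -0.62.

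Members of a pair of clustered families were also among the lower genes. The cytidine deaminases APOBEC3C (9.47 and 6.11), APOBEC3D (8.23 and 6.21) and APOBEC3F (7.86 and 6.33) were the 3 of 7 measured members that were expressed. Of 16 protocadherin beta genes 4 were expressed and all were lower, PCDHB2 from 8.35 to 5.78 and PCDHB6 from 6.81 to 4.80 by the most. PCDHB2, PCDHB6 and PCDHB11 passed the filter through the GFP array alone, as did PCDHB14, and with no filter the median of the 16 protocadherin beta genes was -0.46, against -1.43 over the 4. With no filter the 7 APOBEC genes had a median of -0.19. Members of each family are paralogs, and signal shared between their probe sets was not tested.

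Genes of amino acid supply were mostly higher in the NRF3 line. When amino acids run short, the factor ATF4 is translated and binds composite C/EBP-ATF elements at genes of amino acid synthesis, import and tRNA charging. Of 19 expressed genes in the ATF4 list, 17 were higher and 10 were 1.5-fold higher, with 0 that far lower. Over all 11304 genes 49.4% were higher and 4.82% were 1.5-fold higher. The list had a median of 0.63, against a median of 0 over all 11304 genes. DDIT4, STC2 (5.47 and 6.86) and ALDH1L2, all among those 10, passed the filter through the NRF3 array alone. They could therefore only count as higher. The list's median over genes expressed on both arrays, given with the processing checks below, was smaller. ASNS, asparagine synthetase, went from 9.29 to 10.53. CHAC1, which degrades glutathione, went from 7.08 to 8.50, and DDIT4, an inhibitor of mTORC1, from 5.49 to 7.50. ATF4 itself went from 10.15 to 10.68, while ATF5 went from 8.10 to 7.59.

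Among amino acid transporters 10 of 11 were higher and 6 were 1.5-fold higher, against 49.4% and 4.82% of all genes. Their median was 0.66. The cystine carrier SLC7A11 went from 6.79 to 8.59. SLC7A5, which carries large neutral amino acids, went from 9.54 to 11.07, and its heavy chain partner SLC3A2 from 9.27 to 10.23. The arginine carrier SLC7A1 differed by 0.91 and the glutamine carrier SLC1A5 by 0.66. Only SLC36A1, at -0.06, was not higher among those expressed.

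Of 17 cytosolic tRNA synthetases, which load amino acids on tRNAs, 15 were higher, against 49.4% of all genes, with a median of 0.35. TARS1 went from 9.22 to 10.42, GARS1 from 10.92 to 11.64 and MARS1 from 10.10 to 10.77, and these were the 3 at 1.5-fold. VARS1 and HARS1 were lower, by -0.10 and -0.11. In one-carbon and serine metabolism 10 of 13 genes were higher with a median of 0.52, led by the mitochondrial folate enzymes ALDH1L2 (5.03 and 6.63) and MTHFD2 (9.98 and 11.06). ALDH1L2 passed the filter through the NRF3 array alone, and over genes at 6 on both arrays the median was 0.21. GLDC, which cleaves glycine, went the other way, from 10.13 to 9.37. Several genes stand in both this list and the ATF4 list.

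The promoters of these genes were read for the C/EBP-ATF element TGATGNAAN on both strands, from 250 bases before to 50 after each RefSeq start (GRCh38.p14). A match was present for 4.45% of 27305 genes. It was present for 7 of 14 tRNA synthetases with a promoter in the table, 5 of 10 transporters, 3 of 16 ATF4 list genes and 1 of 10 one-carbon and serine genes (MTHFD1L). The sites of the first 3 lists are shown with the element in capitals, each 5′ to 3′ on the strand named, to let the shared core be seen beside the differences above.
TARS1, chr5:33440956-33440985, minus strand: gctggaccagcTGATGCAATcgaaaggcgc
GARS1, chr7:30594834-30594863, minus strand: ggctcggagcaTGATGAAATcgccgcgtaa
MARS1, chr12:57488053-57488082, minus strand: gaatccctcgcTGATGCAACcggaaccggc
CARS1, chr11:3057407-3057436, plus strand: ttcctagaatcTGATGCAACcgccgccccg
IARS1, chr9:92293692-92293721, plus strand: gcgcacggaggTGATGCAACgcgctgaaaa
NARS1, chr18:57621803-57621832, minus strand: ctacgctctcTGATGCAACgccggaatcgc
AARS1, chr16:70289675-70289704, plus strand: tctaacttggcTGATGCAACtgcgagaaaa
SLC1A4, chr2:64989381-64989410, minus strand: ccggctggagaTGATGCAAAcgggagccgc
SLC3A2, chr11:62881719-62881748, minus strand: ggagcTGATGTAAGgagtcctgcacattac
SLC7A1, chr13:29595662-29595691, minus strand: ggcgcactgcTGATGAAACctggcgccgga
SLC1A5, chr19:46784892-46784921, minus strand: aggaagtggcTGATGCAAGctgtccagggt
SLC38A1, chr12:46266501-46266530, minus strand: cagacccgaaTGATGAAAAgggatcagcta
ASNS, chr7:97872457-97872486, minus strand: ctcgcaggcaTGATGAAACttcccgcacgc
CHAC1, chr15:40953251-40953280, minus strand: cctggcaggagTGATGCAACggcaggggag
CEBPG, chr19:33374061-33374090, plus strand: gcgcggcgtcTGATGCAACctgccggcaac

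All 15 of these genes were higher in the NRF3 line, from CEBPG at 0.34 to CHAC1 at 1.42. They come from lists that were mostly higher (15 of 17, 10 of 11 and 17 of 19 genes). Their shared direction therefore says nothing about the element, whose part was not tested. The 7 synthetases with a match had a median difference of 0.43 and the 7 without one 0.25, and the corresponding medians for transporters were 0.91 and 0.36 (5 genes each). A match describes letters only, and SLC7A11 and SLC7A5, the transporters with the largest differences, are not among the matched genes.

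The endoplasmic reticulum's unfolded protein response, a stress pathway that can also engage ATF4, did not share the direction. Of 16 genes 2 were higher, HERPUD1 (0.29) and DNAJB9 (0.18), against 49.4% of all genes. None reached 1.5-fold, and the median was -0.11. The chaperone HSPA5 was at 12.34 and 11.99, and CALR at 11.51 and 11.09.

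Cholesterol synthesis genes were mostly higher, whereas 49.4% of all genes were. In the mevalonate arm 6 of 7 genes were higher, with HMGCS1, the enzyme that makes HMG-CoA, going from 7.68 to 9.44. ACAT2 went from 8.84 to 9.63 and IDI1 from 9.05 to 9.68, the others differing by under 1.5-fold. Among the sterol ring enzymes 8 of 9 were higher with a median of 0.35, led by SC5D (6.95 and 8.11) and MSMO1 (8.62 and 9.47). TM7SF2 went from 7.67 to 7.28. Of 8 expressed genes of SREBP2 control and LDL uptake 7 were higher, with a median of 0.24. After subtracting the median of chromosomal neighbours 4 were higher and 4 lower, with a median of 0.03. INSIG1, the sterol-sensing anchor of SREBP, went from 9.06 to 9.87, and DAB2, an adaptor for LDL receptor uptake, from 6.62 to 4.70. DAB2 passed the filter through the GFP array alone. NPC1 had the largest rise of this list, 0.83, or 0.27 after that subtraction. Fatty acid synthesis genes had a median of 0.03, or -0.03 after subtracting the median of chromosomal neighbours, with none of 11 at 1.5-fold. The core of the sterol regulatory element, ATCACCCC, was present on either strand for 0 of 6 mevalonate genes and 0 of 8 sterol ring genes with a promoter in the table. It was present for 1 of 8 SREBP2 control and LDL uptake genes (SREBF2), and for 0.824% of all genes.

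YAP and TAZ, the effectors of the Hippo pathway, act through TEAD factors on growth and matrix genes. Of 18 expressed targets 15 were higher and 7 were 1.5-fold higher, with a median of 0.44. Over all genes 49.4% were higher and 4.82% were 1.5-fold higher. ANKRD1 passed the filter through the NRF3 array alone, so it could only count as higher. The list's median with no filter, given with the processing checks below, was smaller. Besides ANKRD1, the matricellular genes CCN2 (8.73 and 10.35) and CCN1 (9.28 and 10.78) were the largest, followed by the kinase gene NUAK2 (6.70 and 7.64) and CRIM1 (10.23 and 10.98). NT5E went from 10.95 to 10.52, and AXL was at 12.10 and 12.31. The pathway's own components had a median of 0.12, and none of 19 reached 1.5-fold.

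The TEAD element GGAATG was present on either strand of the promoter window for 8 of 12 targets, and for 16.7% of all genes. The 250 bases upstream of ANKRD1 and CCN2 (RefSeq, GRCh38.p14, minus strand, 5′ to 3′) are shown, with each match in capitals, since these genes lead the list and hold several copies.
ANKRD1, chr10:90921088-90921337: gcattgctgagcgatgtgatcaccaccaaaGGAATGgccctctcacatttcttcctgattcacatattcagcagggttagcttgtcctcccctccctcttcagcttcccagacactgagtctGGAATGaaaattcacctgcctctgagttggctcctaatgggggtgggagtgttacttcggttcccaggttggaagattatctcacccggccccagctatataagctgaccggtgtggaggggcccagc
CCN2, chr6:131951373-131951622: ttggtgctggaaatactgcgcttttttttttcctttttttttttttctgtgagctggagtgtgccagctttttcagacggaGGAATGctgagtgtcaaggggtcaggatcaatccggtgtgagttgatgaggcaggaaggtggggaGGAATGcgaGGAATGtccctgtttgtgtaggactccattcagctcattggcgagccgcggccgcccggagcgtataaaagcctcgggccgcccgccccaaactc

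ANKRD1 held 2 matches and CCN2 3. PTPN14, which also holds a match, was at 9.33 and 9.20, so a match did not go with a higher level in every member.

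Genes at antioxidant response elements, the sites bound by this family, were divided. Of 22 expressed genes 10 were higher and 12 lower, with a median of -0.04, which turned to 0.07 (12 higher, 10 lower) after subtracting the median of each gene's 50 chromosomal neighbours. SLC7A11, TXNRD1 (8.40 and 9.50) and GCLM (6.33 and 7.24), which serve cystine import, thioredoxin reduction and glutathione synthesis, were the 3 at 1.5-fold. NQO1, the usual reporter of NRF2 activity, was at 10.60 and 10.44, and the efflux pump ABCC3 went from 7.30 to 6.18. The core element TGACNNNGC occurred in the window of 6 of 17 genes and of 16.1% of all genes. A site from GCLM, 1 from TXNRD1 and 1 from ME1, a gene that was at 8.12 and 7.71, are set side by side.
GCLM, chr1:93909445-93909474, plus strand: ctggaagacaaTGACTAAGCagaaatcgta
TXNRD1, chr12:104215670-104215699, plus strand: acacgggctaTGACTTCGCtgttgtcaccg
ME1, chr6:83431169-83431198, minus strand: tctcctgccaTGACTCAGCgcttctcgcag

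Proteasome genes differed little in size. Of 15 subunits of the regulatory 19S particle 14 were higher, against 49.4% of all genes. Their median was 0.23, but only PSMC6 (7.11 and 7.75) reached 1.5-fold. The 20S core had 9 of 14 higher, with a median of 0.06. POMP, the core's assembly chaperone, went from 10.72 to 11.16, and its 50 chromosomal neighbours had a median difference of 0.42.

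Several signalling groups had a few large members. Among outputs of the MAPK pathway, the phosphatase genes DUSP5 (8.48 and 10.21) and DUSP6 (7.64 and 8.57) and the cyclin gene CCND1 (9.26 and 10.14) were 1.5-fold higher, with 10 of 14 higher and a median of 0.28. CCND2, a second D-type cyclin gene, went from 6.95 to 5.36. Of 15 hypoxia genes 11 were higher and 5 were 1.5-fold higher, including BNIP3 (8.63 and 9.56), VEGFA (7.49 and 8.24) and the glucose carrier SLC2A1 (9.44 and 10.18). The largest of the 5 was DDIT4, also in the ATF4 list. It passed the filter through the NRF3 array alone, so it could only count as higher. Over all genes 49.4% were higher and 4.82% were 1.5-fold higher.

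Matrix and lysosomal genes were mostly lower. Of 18 matrix genes 13 were lower and 5 were 1.5-fold lower, with a median of -0.18, SPP1 and FBLN1 (6.86 and 5.95) among them. Over all genes 50% were lower and 4.2% were 1.5-fold lower. SPP1 and FBLN1 passed the filter through the GFP array alone, so they could only count as lower. THBS1, an anti-angiogenic thrombospondin, went from 8.32 to 6.79, VCAN from 7.72 to 6.76 and fibronectin, FN1, from 7.07 to 6.30. Integrins were lower in 8 of 9, by at most -0.56 for the fibronectin receptor chain ITGA5 (8.88 and 8.32). THBS1 overlaps FSIP1. Of 16 lysosomal genes 13 were lower with a median of -0.26, and the proteases CTSL (8.91 and 7.71), TPP1 (8.11 and 7.13) and CTSB (9.51 and 8.69) had the largest differences.

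Of 7 expressed neuroendocrine genes 6 were lower, against 50% of all genes, with a median of -0.48. CHGB and SYP passed the filter through the GFP array alone, and the median was -0.24 over genes at 6 on both arrays and -0.14 with no filter. The granule protein gene CHGB went from 6.31 to 5.28 and ENO2, neuronal enolase, from 8.08 to 7.28, while UCHL1 was at 11.45 and 11.39. The mesenchymal homeobox gene PRRX1 went from 6.93 to 5.26, against 8.20 to 9.11 for N-cadherin, CDH2. Some groups differed little: large ribosomal subunit genes had a median of 0.04, respiratory chain genes 0.01 and E2F and replication genes 0.00.

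**Figure D2:**
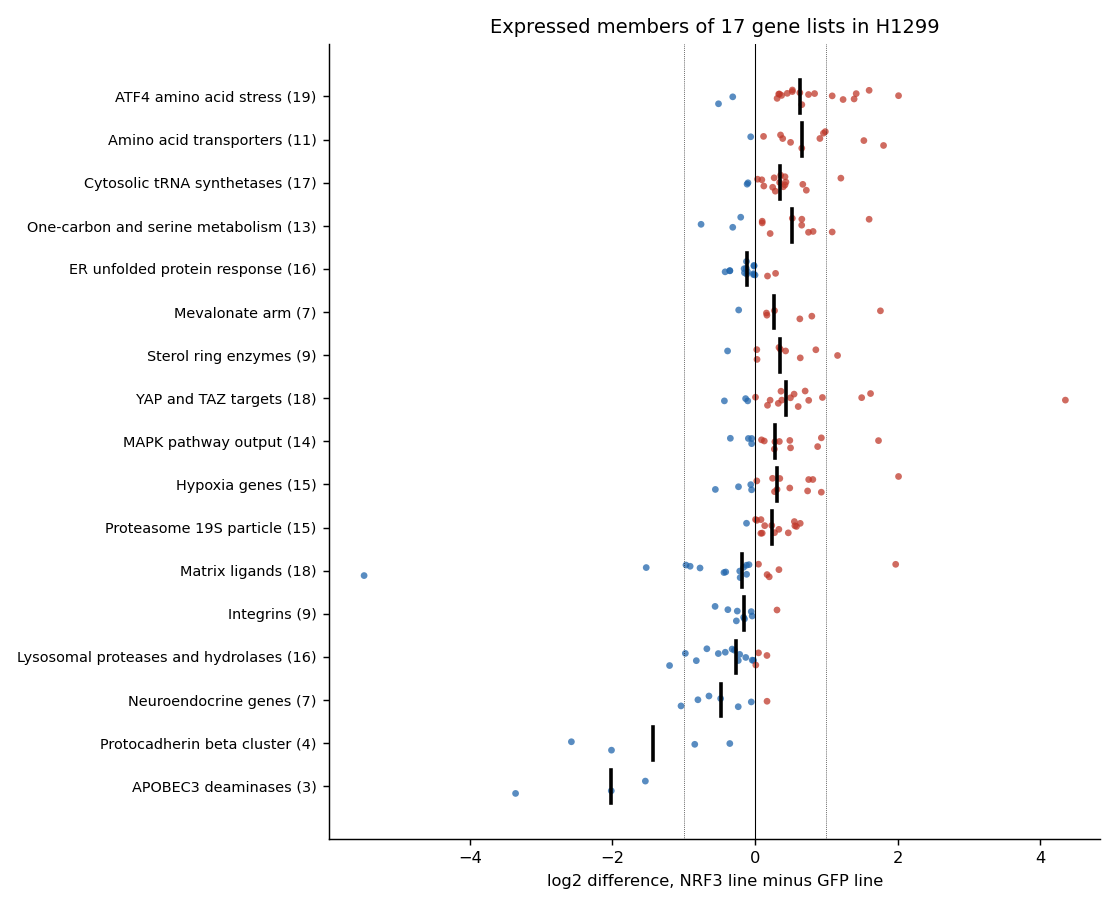
Each point is 1 expressed gene of 1 of 17 lists, placed by its log2 difference, NRF3 line minus GFP line, with the list's median as a black bar and the number of genes in parentheses. The amino acid lists lie mostly right of 0 (medians 0.63, 0.66 and 0.35), whereas the unfolded protein response (-0.11), lysosomal genes (-0.26) and protocadherin beta genes (-1.43) lie left of it.

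The differences also followed position along the chromosomes. Expressed genes were placed in RefSeq order, and the median was taken over windows of 50 consecutive genes. The window medians had an SD of 0.16, against 0.083 and 0.054 for the siRNA comparisons in HCT116 and HCT116-p53KO. Windows at 0.3 or more made up 6.38% in H1299 and 0% in both siRNA comparisons, each made within 1 line. Between HCT116-p53KO and HCT116, which are separate lines, control siRNA arrays gave an SD of 0.052 and 0.536% of windows at 0.3 or more.

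The highest window lay on chromosome 12 from TMTC3 to ALDH1L2, with a median of 0.60 and 47 of 50 genes higher. It held TXNRD1, the growth-inhibitory gene BTG1 (7.46 and 8.55) and METAP2 (8.37 and 9.35). The second, on chromosome 18 from TUBB6 to RMP24, had a median of 0.57, also with 47 of 50 higher. The lowest lay on chromosome 8 from FBXO25 to SLC39A14, with a median of -0.38, 41 of 50 lower, and CTSB and TUSC3 (9.31 and 8.41) among its members. Over whole chromosomes the median was highest for chromosome 13, at 0.33, where 37 of 196 genes were 1.5-fold higher and 0 were 1.5-fold lower.

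Runs of at least 10 genes whose 50 nearest neighbours had a median of 0.3 or more numbered 10, on chromosomes 2, 5, 10, 12, 13 and 18. They held 705 genes, 6.25% of the 11287 with a position, and 87.5% of them were higher. They also held 195 of 544 genes that were 1.5-fold higher (35.8%) and 30 of 77 that were 2-fold higher (39.0%). Within the same runs the 419 genes under 6 on both arrays had a median difference of 0. The runs were chosen by these values, so the shares are a description. DNA copy number was not measured here, and its part in these runs was not tested.

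**Figure D3:**
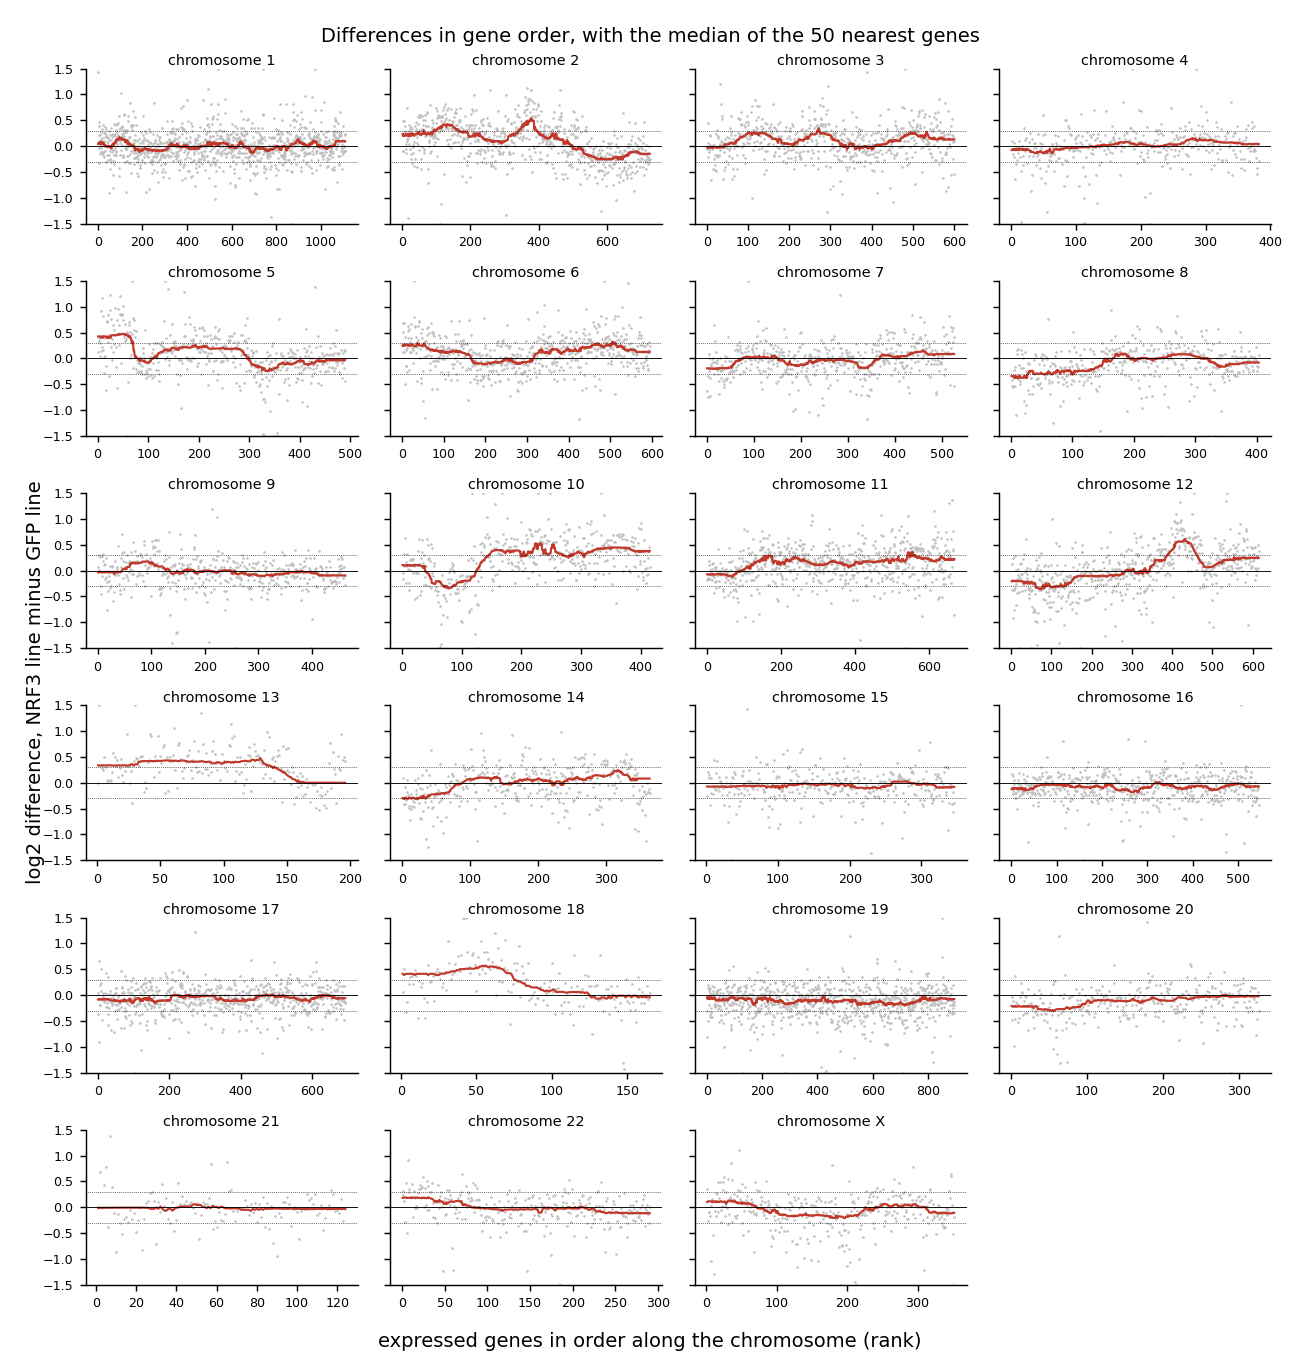
Log2 difference, NRF3 line minus GFP line, of each expressed gene in chromosomal order (grey, drawn no farther than 1.5 from 0) with the median of the 50 nearest genes in red, 1 panel per chromosome and dotted lines at 0.3 and -0.3. The red line stays above 0.3 over long runs of chromosomes 2, 5, 10, 12, 13 and 18.

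Subtracting from each gene the median of its 50 neighbours lowered the number at 1.5-fold higher from 545 to 268 (2.37%), against 475 and 454 (4.02%) lower. Higher genes then made up 37.1% of all differences of 1.5-fold, against 53.4% as measured. At 2-fold the numbers were 50 (0.443%) higher and 116 (1.03%) lower, and 49.7% of genes were higher by any size. ANKRD1, whose neighbours had a median of 0.50, kept a difference of 3.86, HMGCS1 1.44 and DDIT4 1.62, while DAB2 went from -1.92 to -2.37. Several named genes were no longer 1.5-fold apart, among them CRIM1 (0.75 to 0.34), DUSP6 (0.93 to 0.43), CDH2 (0.91 to 0.39), SLC7A1 (0.91 to 0.49), BTG1 (1.10 to 0.55), METAP2 (0.98 to 0.42), BNIP3 (0.93 to 0.57), IDI1 (0.63 to 0.53) and PSMC6 (0.63 to 0.54). On the lower side these were CTSB (-0.82 to -0.48), TUSC3 (-0.90 to -0.55), ENO2 (-0.80 to -0.55), FN1 (-0.77 to -0.52), LOXL2 (-0.68 to -0.41), EMP1 (-0.61 to -0.31) and ZDHHC2 (-0.62 to -0.31). The YAP and TAZ targets at 1.5-fold higher went from 7 to 5, and POMP from 0.44 to 0.02. The ATF4 list had a median of 0.71 after subtraction, transporters 0.60 and synthetases 0.36. Other lists lost more: the MAPK outputs went from 0.28 to 0.12 and the hypoxia genes from 0.31 to 0.19.

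**Figure D4:**
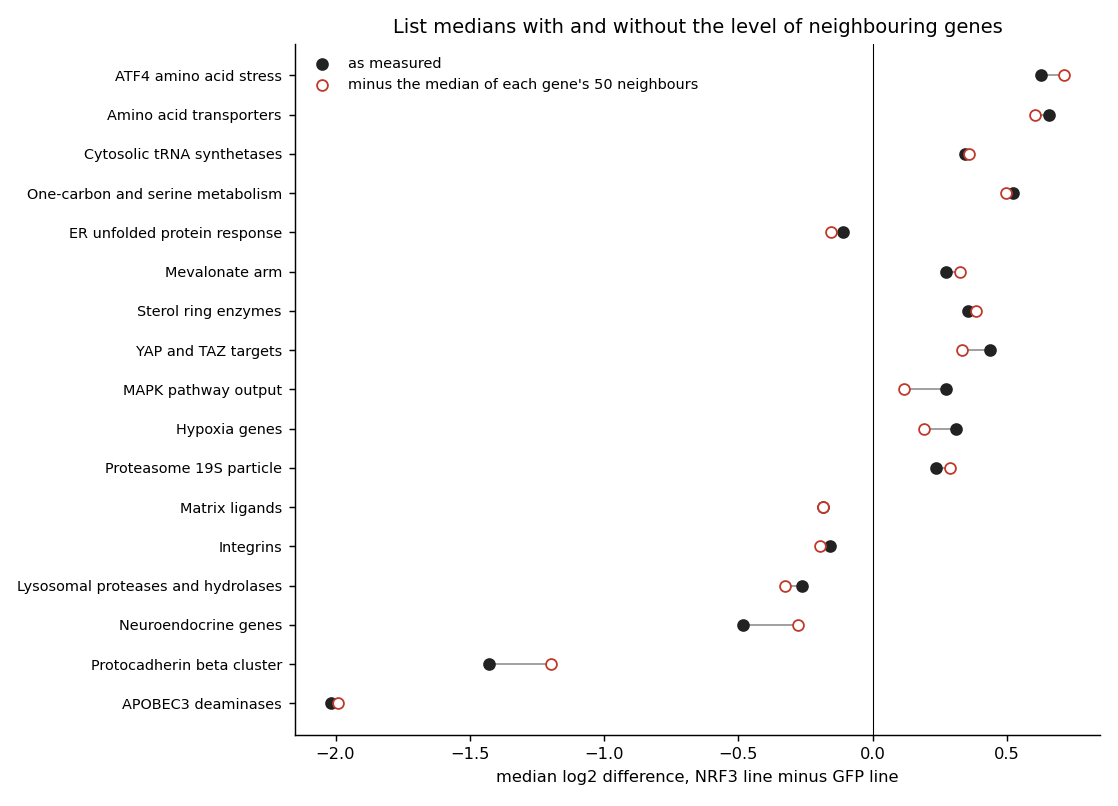
Median log2 difference, NRF3 line minus GFP line, of 17 gene lists as measured (black) and after subtracting the median of each gene's 50 neighbours (open red). The ATF4 list stands at 0.63 and 0.71, the YAP and TAZ targets at 0.44 and 0.33.

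The siRNA comparisons share no array with the H1299 pair, and 10856 genes were expressed in all 3. Of 502 genes 1.5-fold higher in H1299, 19 (3.78%) were 1.5-fold lower after both siRNAs, which 1.91% of all genes were; they are 9.18% of those 207 genes. In the same direction, 9 (1.79%) were higher after both, against 1.32% of all genes. Of 397 genes 1.5-fold lower in H1299, 10 (2.52%) were higher after both siRNAs and 13 (3.27%) were lower after both. At 2-fold in H1299 and at least 0.32 (log2) after siRNA, 4 of 65 higher genes (6.15%) were lower after both, against 6.35% of all genes. For the higher genes, the larger share seen at 1.5-fold was thus not seen there. Higher after both was 1 of these 65 (1.54%), against 5.92% of all genes. Of 97 lower genes at this cut, 9 (9.28%) were higher after both and 6 (6.19%) were lower after both.

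NFE2L3 led the opposite set, going from 8.97 to 6.62 in HCT116 and from 8.71 to 7.15 in HCT116-p53KO. It is the gene of the plasmid and the target of the siRNAs, so its opposite direction was set by the design. It is counted in the opposite-direction shares of the higher genes above. RMND5A, a subunit of a ubiquitin ligase, differed by 0.98 in H1299 and by -1.35 and -1.07 after the siRNAs. MSMO1, a sterol ring enzyme, differed by 0.85 and by -1.31 and -1.44. DDAH1, which breaks down methylated arginine, differed by 0.81 and by -1.15 and -0.85, and the crosslinking enzyme TGM2 by 1.40 and by -0.99 and -0.65.

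Among genes lower in H1299 and higher after both siRNAs, the monocarboxylate carrier family gene SLC16A9 differed by -1.22 and by 0.93 and 1.06. The semaphorin gene SEMA3A differed by -0.90 and by 0.69 and 1.13. VCAN and the lens filament gene BFSP1 (-1.30 in H1299, 0.92 and 0.68 after siRNA) were in the same set. DAB2 was lower in all 3 comparisons, by -1.92, -0.93 and -0.85, and so was LOXL2, by -0.68, -0.97 and -0.87. CTH, an enzyme of cysteine synthesis, was higher in all 3, by 0.81, 0.77 and 0.81.

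**Figure D5:**
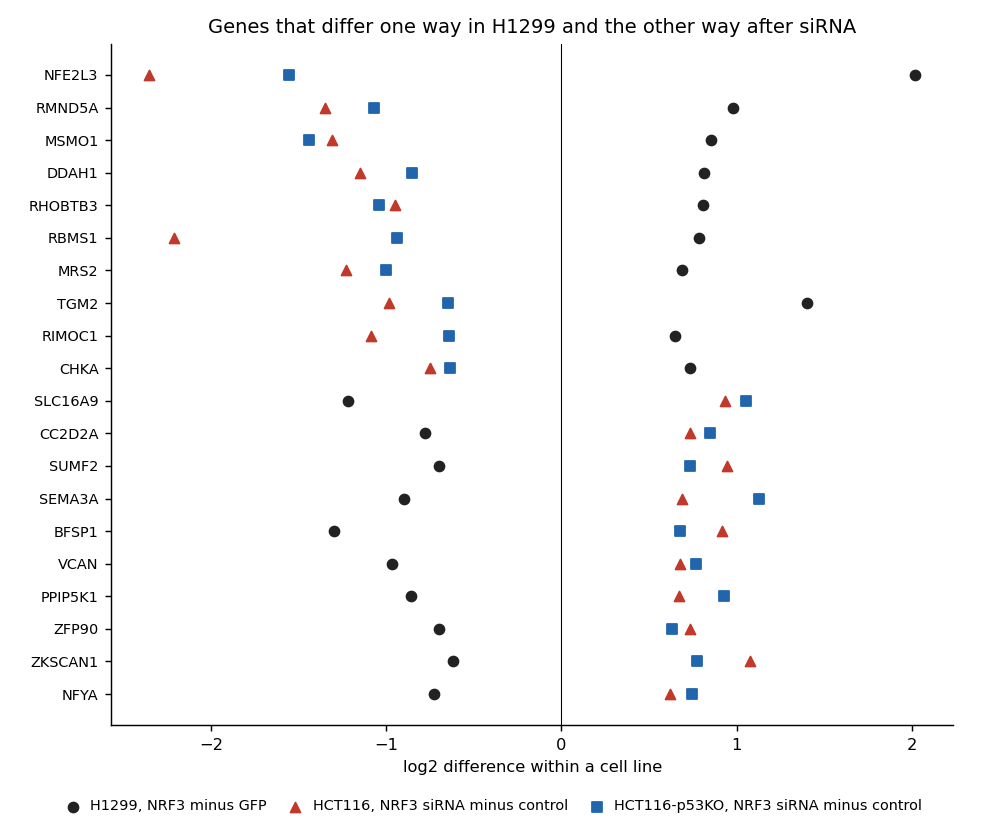
Log2 differences of 20 genes in the H1299 pair (black circles, NRF3 minus GFP) and after NRF3 siRNA minus control in HCT116 (red triangles) and HCT116-p53KO (blue squares), chosen because the H1299 difference opposes both others. NFE2L3, the gene of the plasmid and the target of the siRNAs, stands at 2.02, -2.35 and -1.55.

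List medians in the siRNA comparisons varied in sign. The ATF4 list, with a median of 0.63 in H1299, had medians of 0.26 and 0.20 after the siRNAs, and the tRNA synthetases, at 0.35, had 0.22 and 0.20. The amino acid transporters, at 0.66, had 0.14 in HCT116 and -0.14 in HCT116-p53KO. The sterol ring enzymes, at 0.35, had -0.53 and -0.25, and the mevalonate arm, at 0.27, had -0.45 and -0.31. The YAP and TAZ targets, at 0.44, had 0.04 and -0.12.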

How the data were processed

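The authors deposited a log2 intensity for each of 33297 probe sets. The submitters' processing notes name RMA and Affymetrix Expression Console without versions, and do not say which arrays were normalized as a set. RMA equalises array distributions, so a difference is relative to the other genes of the array.

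Probe sets with 1 gene symbol (19460) were kept, with the highest mean over 6 arrays for each gene. Differences of log2 values were taken between the H1299 arrays with no test. Genes named were NFE2L3, the 20 largest differences each way among expressed genes and among genes at 6 on both arrays, up to 8 members of each of 65 lists with the largest differences, members needed to account for a list, up to 10 genes each way shared with the siRNA comparisons, and up to 5 in each of 2 extreme windows each way. Marker genes named for identity, and genes differing the same way in all 3 comparisons, were chosen after their values were seen. The members and lists were chosen with earlier results of these data known. The scripts were tested on simulated data. Alternatives were other filters (7 on 1 array, 6 on both, none), the mean of probe sets, quantile normalization, loess (span 0.4), other sizes and window lengths. Subtraction of neighbours and the runs of neighbouring genes were added after seeing the data. Python 3.11.15, numpy 2.4.6, pandas 2.3.3, statsmodels 0.14.6, scipy 1.17.1 and matplotlib 3.10.9 were used. Some genes are not analysed here.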

Additional observations from a re-analysis of the deposited data

Results flagged for a closer look

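Probe sets outside the gene comparisons also differed between the H1299 lines. Of 4683 probe sets with no entry in the annotation table that reached 6 on 1 of the 2 arrays, 68 were 2-fold or more higher in the NRF3 line and 28 were lower, by up to 4.22 and -2.80 on the log2 scale. Of 1113 probe sets with several symbols, 9 were 2-fold higher and 14 lower. These signals have no single gene name here.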

How the results depend on the processing

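No paired analysis was possible because each group has 1 array. Of 638 list medians under an alternative, 64 had the other sign, in 19 lists whose main medians were at most 0.30 from 0 and none of which is a main list; the antioxidant and fatty acid lists are among them. The balance at 1.5-fold turned from 545 higher and 475 lower to 268 and 454 less neighbours, to 483 and 510 with quantile normalization over the H1299 arrays, and to 541 and 574 over 6 arrays. Without replicates, a gene's value counted as moved when it changed by more than 0.27, the SD of differences of genes under 6 on both arrays, and a list or window median by more than that SD scaled to its number of genes. By this rule 96 of 638 list medians and 4 of 6 window medians moved. A rule of 1.5 times the main value was also tried, after the labels of the first rule had been seen, and gave 233 and 0; among the main lists it gave 18 in place of 36. The first rule is used here. Single genes were checked by this rule only for 63 genes with the largest differences, NFE2L3 apart. Of their values 12 moved and 522 did not, all 12 after subtracting neighbours. Other named genes are not in this count. Several of them also changed by more than 0.27 after subtracting neighbours, among them CRIM1 (0.75 to 0.34), SLC7A1 (0.91 to 0.49) and POMP (0.44 to 0.02).

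Subtracting neighbours gave 50 genes 2-fold and 268 genes 1.5-fold higher. Lower genes numbered 81 at 2-fold and 300 at 1.5-fold with a filter of 7, and 64 and 314 at 6 on both arrays. At a log2 difference of 0.32, 1718 were higher and 1601 lower. Genes 2-fold higher in H1299 and at least 0.32 (log2) lower after both siRNAs numbered 4 of 65, 6.15% against 6.35% of all genes. The highest window median was 0.78 with 25 genes and 0.43 with 100, and the lowest -0.47 and -0.32.

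With a filter of 7, list medians were 0.45 (mevalonate), 0.52 (ATF4), -0.31 (matrix) and 0.21 (one-carbon). For protocadherin beta that filter left PCDHB2 alone, at -2.58, so this is not the median of a family. At 6 on both arrays they were 0.52 (ATF4), 0.21 (one-carbon) and -0.24 (neuroendocrine). With no filter they were 0.50 (transporters), 0.35 (YAP and TAZ), -0.46 (protocadherin beta), -0.19 (APOBEC3) and -0.14 (neuroendocrine). Averaging probe sets per gene gave 0.50 (transporters). Quantile normalization over the H1299 arrays gave 0.26 (synthetases). Over 6 arrays it gave 0.50 (transporters), 0.24 (synthetases), 0.31 (YAP and TAZ), 0.18 (MAPK), -1.20 (protocadherin beta), 0.21 (hypoxia) and -0.33 (neuroendocrine). Less neighbours, medians were 0.71 (ATF4), 0.33 (YAP and TAZ), 0.12 (MAPK), -1.20 (protocadherin beta), 0.19 (hypoxia) and -0.28 (neuroendocrine). Means in place of medians were 0.51 (mevalonate), 0.72 (ATF4), 0.68 (YAP and TAZ), -0.48 (matrix), 0.40 (hypoxia), -2.30 (APOBEC3), -0.35 (lysosomal) and 0.40 (one-carbon). The filters test fewer genes, and beyond that the cause was not tested. With 1 array per line, the number of arrays limits the precision, and differences of single genes cannot be separated from those between separately selected lines.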
